A study of Mus musculus with 15 samples.

Results

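Potassium channel and voltage-gated calcium channel genes were taken as every gene whose platform symbol starts with Kcn or Cacn, each read by its brightest probe set, the one with the highest mean over all lines. There were 108 such genes, on 222 probe sets, among 18193 genes in all. The prefixes cover pore-forming and accessory subunits, and also 3 RNA genes that encode no subunit, Kcnq1ot1, Kcnmb4os1 and Kcnmb4os2.

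The expression was measured in 15 mouse cell lines on arrays that read messenger RNA, with 1 array per line. In all, 3 lines carry the genotype label AP and 12 the label AKP, whose letters the labels do not spell out. No allele, promoter, Cre driver or tissue is given. All lines were grown untreated in serum-supplemented DMEM. The AP lines are called tumour, as are 11 AKP lines, and the line AKP 6 is called adenoma, a benign growth. AP 1 and AP 2 are labelled male and AP 3 female, and AKP 4, AKP 5 and AKP 10 are the male-labelled AKP lines. A pair number, different in each, is given for 8 lines, AP 1 and AKP 6 to AKP 12, and what it pairs is not explained. Whether some lines share an animal or tumour is not stated, so p-values measure only the spread between these lines. Values are log2 expression values as deposited. Between 35.9% and 39.5% of the probe sets of a line were under 3, close to the lowest values seen and taken here as the floor, and no detection calls were used.

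Potassium channels let potassium ions leave or enter a cell and thereby set its membrane voltage. They fall into voltage-gated, calcium-activated, inward-rectifying and tandem-pore families. Voltage-gated calcium channels open on depolarization and are built from a pore-forming alpha1 subunit with beta and alpha2delta subunits. In epithelia, basolateral potassium channels such as the calcium-activated channel encoded by Kcnn4 hold the voltage that drives chloride secretion.

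The promoters of Kcnn4 and Cacnb2 are shown because these genes carry the genotype comparison below. Each is a window of 250 bases before to 50 bases after an annotated start, from RefSeq on GRCm38.p6, and capitals mark motif matches. Kcnn4 has 1 window, at chr7:24370013-24370312 on the plus strand. Cacnb2 has 2 windows, both on the plus strand, at chr2:14604056-14604355 and chr2:14823842-14824141.
Kcnn4: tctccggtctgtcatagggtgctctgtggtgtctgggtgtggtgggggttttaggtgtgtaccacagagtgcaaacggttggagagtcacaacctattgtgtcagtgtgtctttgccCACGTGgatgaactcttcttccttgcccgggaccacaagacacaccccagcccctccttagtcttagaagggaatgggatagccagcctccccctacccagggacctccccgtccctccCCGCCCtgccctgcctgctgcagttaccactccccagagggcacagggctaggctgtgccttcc
Cacnb2 start 1: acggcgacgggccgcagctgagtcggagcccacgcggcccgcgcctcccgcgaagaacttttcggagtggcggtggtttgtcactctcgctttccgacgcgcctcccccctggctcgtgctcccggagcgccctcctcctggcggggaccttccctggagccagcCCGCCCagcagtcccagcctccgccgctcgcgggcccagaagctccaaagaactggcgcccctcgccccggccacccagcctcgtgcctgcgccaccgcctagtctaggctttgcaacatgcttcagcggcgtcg
Cacnb2 start 2: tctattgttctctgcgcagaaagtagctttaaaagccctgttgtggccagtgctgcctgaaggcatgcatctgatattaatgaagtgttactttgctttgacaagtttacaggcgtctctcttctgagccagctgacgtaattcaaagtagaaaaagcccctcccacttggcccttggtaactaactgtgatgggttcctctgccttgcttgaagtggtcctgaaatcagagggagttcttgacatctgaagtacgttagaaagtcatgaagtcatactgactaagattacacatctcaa

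The Kcnn4 window held 6 CpG and 59.7% GC, and the windows of Cacnb2 held 35 CpG with 71.7% GC and 4 CpG with 44.0% GC. Both strands were searched for TGANTCA (the AP-1 motif), GGGCGG (the GC box) and CACGTG (the E-box), which do not overlap in these windows. A GC box began at position -14 relative to the start of Kcnn4 and at -85 relative to the first start of Cacnb2. It occurred in 35.7% of all 32851 windows of the same length. The Kcnn4 window also held an E-box at position -133, a motif found in 7.15% of all windows. The letters TGANTCA were in none of the 3 windows, and in 7.81% of all windows. Of the 108 genes, 82 had a window under their symbol.

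Most of these genes lay at the floor of the arrays. In 44 of the 108 genes no line reached 3, and in 17 at least 1 line reached 8. The median level over lines was 2.84, against 6.59 for all 18193 genes, and 15.7% of the channel genes reached 8 in some line, against 55.8% of all genes. Only Kcnj11, the pore subunit of the ATP-sensitive potassium channel, lay above 8 in all 15 lines, by its brightest probe set and not by its other one. Levels of different probe sets also depend on the probes, so these comparisons between genes are rough, and the text below mainly compares lines within a gene.

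**Figure D1:**
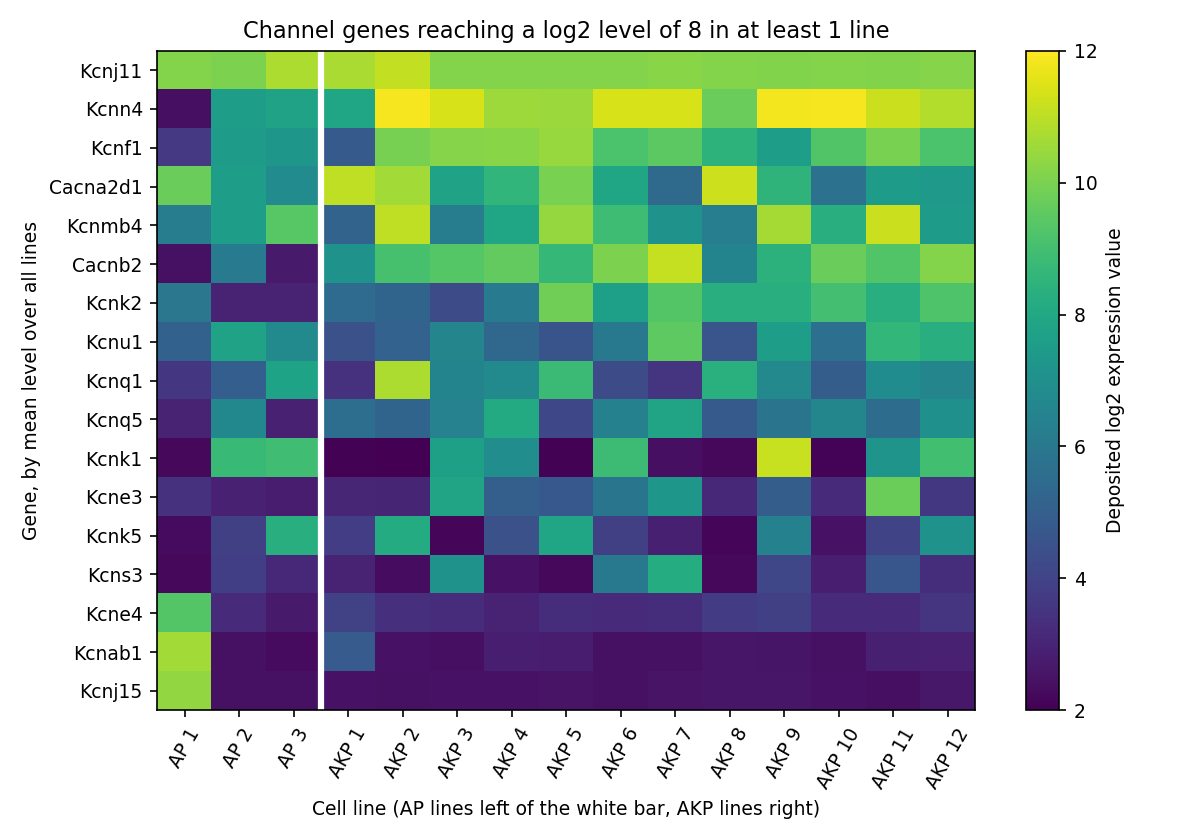
Deposited log2 values (colour) of the 17 channel genes that reach 8 in at least 1 of 15 cell lines, in rows ordered by mean level, with the 3 AP lines left of the white bar and the 12 AKP lines right of it. Kcnn4 and Cacnb2 are lighter in the AKP columns, while Kcne4, Kcnab1 and Kcnj15 are light in AP 1 alone.

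The lines were checked against marker lists. Of 9 epithelial genes, 1 reached 8 in AP 1, 8 in AP 2, 6 in AP 3 and 3 to 9 in the AKP lines. Of 10 fibroblast and smooth muscle genes, 7 reached 8 in AP 1, 7 in AKP 1, 5 in AKP 8 and at most 4 in the others. Correlated with each other line over all genes, AP 1 and AKP 1 gave the smallest medians, 0.892 and 0.922. Among 6 haematopoietic genes at most 1 reached 8 in any line (Csf1r in AP 3, Cd68 in some AKP lines), and Ptprc, the pan-leukocyte marker, was at most 3.10. Among 10 neuronal and neuroendocrine genes at most 1 reached 8. That gene was Stmn2, at 10.87, 10.48 and 8.46 in AKP 3, AKP 4 and AKP 11, and it lay at or below 2.57 in AP and at or above 2.60 in AKP. Elavl4 reached 7.10 in AKP 1 and Tubb3 7.70 in AKP 9, while Syp was at most 3.16 and Chga at most 3.47. None of 4 endothelial genes reached 8, and of 6 cardiac and skeletal muscle genes at most 1 did, Tnnt2. The intestinal list held 6 genes, of which 0 or 1 reached 8 in an AP line and 0 to 3 in an AKP line. The highest were Cdh17 at 12.90 and Cdx2 at 11.52, each in an AKP line, against at most 5.96 and 5.76 in AP. Lgr5 was highest in AP, at 9.52 in AP 2 and 9.10 in AP 3, and ran from 1.98 to 9.47 in AKP. Vil1 was at most 4.21 in any line. In these bulk samples, fewer cells of a type and less RNA per cell cannot be told apart.

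Setting AKP against AP asks which channel genes go with the genotype label. Of the 108 genes, 2 rose in AKP, Kcnn4 and Cacnb2, and 1 fell, Kcnd1, by limma with an adjusted p under 0.05 over all genes. The same test called 1.9% of all 18193 genes, with 0.792% higher in AKP and 1.1% lower. At an unadjusted p under 0.05, 17 of the 108 genes differed, 5 higher and 12 lower in AKP, against 16.5% of all genes. The median difference was 0.013 on the log2 scale for the channel genes and 0.012 for all genes.

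**Figure D2:**
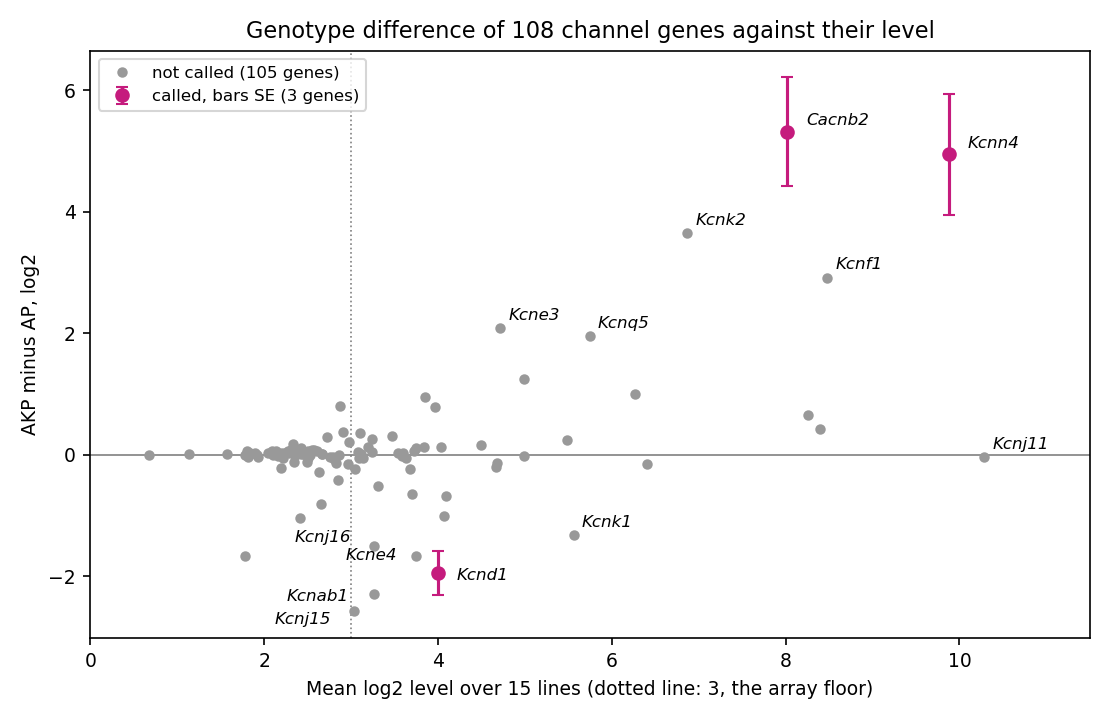
AKP minus AP difference (log2, vertical axis) of the 108 channel genes against their mean log2 level over 15 lines (horizontal axis). The 3 called genes are coloured with bars of 1 SE, and the other genes crowd around 0, with a median level of 2.84 over all 108, left of the dotted floor of 3.

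Kcnn4 encodes the intermediate-conductance calcium-activated potassium channel, which opens when calcium binds its calmodulin. Its level was 2.40 in AP 1, 7.58 in AP 2 and 7.78 in AP 3, and in AKP it ran from 7.87 (AKP 1) through a median of 11.30 to 11.88 (AKP 2). No AP line reached the lowest AKP line, though AKP 1 exceeded AP 3 by little. Mean Kcnn4 was 5.92 ± 3.05 over AP lines (SD, n = 3) and 10.87 ± 1.15 over AKP lines (SD, n = 12). AKP thus exceeded AP by a log2 difference of 4.94 ± 0.99 (SE; limma adjusted p = 0.0235). An exact two-sided permutation test over the 455 splits of the lines gave p = 0.0022, the smallest this design allows. It adds little to the lack of overlap, and it is not adjusted for choosing the gene with earlier results of these data known. Groups did not overlap in 2.13% of all genes.

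The size and the call of the Kcnn4 difference depended on AP 1. Without AP 1 it was 3.19 ± 0.81 (SE; limma adjusted p = 0.0654), and without AP 1 and AKP 1 it was 3.46 ± 0.48 (SE; limma adjusted p = 0.00211). AP 1 and AKP 1, the lowest lines of their groups for Kcnn4, also had the lowest summed level of the epithelial markers in their groups. That sum was 10.00 in AP 1 and 12.28 in AKP 1 on the log2 scale, against 15.7 or more in AP 2 and AP 3. AP 2, at 16.03, lay above AKP 2, AKP 5, AKP 7 and AKP 10, at 15.58 to 15.94. Kcnn4 was 10.48 to 11.88 in those AKP lines. The sum was 16.32 to 16.86 in AKP 3, AKP 4, AKP 6, AKP 9, AKP 11 and AKP 12. AKP 8, with Kcnn4 at 9.71, had an epithelial sum of 12.9. A sum follows its brightest genes, such as Krt18, which lay at 3.62 in AP 1 and 14.86 in AP 2. Epcam, on the same list, went the other way, at 9.82, 8.42 and 9.79 in AP 1, AP 2 and AP 3. Within AKP it was highest in AKP 1 and AKP 8, at 9.31 and 9.28, and at most 8.72 in the other lines. The part of these markers in the difference was not tested.

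The other members of the Kcnn family, the small-conductance calcium-activated channels, were low in nearly all lines. Kcnn1 was at most 3.20 and Kcnn3 at most 2.37 in any line. Kcnn2 lay between 2.73 and 3.91 in 14 lines and at 6.27 in AKP 10. None of the 3 was called, with limma adjusted p-values of 0.858, 0.979 and 0.548 for Kcnn1, Kcnn2 and Kcnn3.

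Cacnb2 encodes a beta subunit, which sits inside the cell and brings the pore of high-voltage-activated calcium channels to the membrane. It lay at 2.44 in AP 1, 6.15 in AP 2 and 2.72 in AP 3, and in AKP from 6.50 (AKP 8) through a median of 9.32 to 11.13 (AKP 7). The groups did not overlap, and AP 1 and AP 3 were on the floor. Mean Cacnb2 was 3.77 ± 2.07 over AP lines (SD, n = 3) and 9.08 ± 1.29 over AKP lines (SD, n = 12). The difference was 5.31 ± 0.89 (SE; limma adjusted p = 0.0102), and the exact two-sided permutation p = 0.0022 carried the limits given for Kcnn4. Without AP 3 it was 4.79 ± 1.06 (SE; limma adjusted p = 0.0566), and without AP 1 and AKP 1 it was 4.83 ± 0.99 (SE; limma adjusted p = 0.023).

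Of the cardiac and skeletal muscle markers, tissues in which beta subunits are well known, Tnnt2, a cardiac troponin, lay at 3.99, 13.32 and 6.48 in AP 1, AP 2 and AP 3 and from 7.10 (AKP 1) to 13.87 (AKP 11) in AKP. AP 2 was the highest AP line for both Tnnt2 and Cacnb2. The other 5 markers of that list were at most 4.03 in any line. The summed level of the list, 5.98 to 13.32 in AP and 7.48 to 13.88 in AKP, therefore mostly reads Tnnt2. The part of these markers in the difference was not tested.

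Cacnb1 and Cacnb4, the other beta subunit genes read here, stayed low. Cacnb1 lay between 3.51 and 4.06 over all lines. Cacnb4 lay between 3.01 and 3.45 except in AP 2, at 4.70, the AP line that was also highest for Cacnb2. Neither was called (limma adjusted p = 0.833 and 0.276).

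Of 9 measured pore subunit genes of calcium channels, 0 were called and none reached 8 in any line by its brightest probe set. They include the high-voltage-activated pores with which a beta subunit acts, and T-type pores. Cacna1c, the L-type pore of heart and smooth muscle, lay at 7.22 in AP 1, 6.47 in AKP 1 and 7.19 in AKP 8, at 4.29 in AKP 10 and between 2.66 and 2.82 elsewhere. The 3 highest lines are those with 7, 7 and 5 of the 10 fibroblast and smooth muscle markers at 8 or above. The other Cacna1c probe set read 6.89 in AP 1 and 6.54 in AKP 8, but only 3.39 in AKP 1 and at most 2.77 elsewhere. Cacna1b, the N-type pore, was 5.62 in AP 2 and 3.76 to 4.28 in the other lines. A second Cacna1b probe set read 8.26 in AP 2, 5.30 in AP 3 and at most 3.78 elsewhere, with a difference of -2.16 ± 0.57 (SE; limma adjusted p = 0.081 over 34945 probe sets), and another read 7.96 in AP 2 and at most 3.74 elsewhere. Cacna1g, a T-type pore, was 5.98 in AP 3 and at most 1.86 elsewhere. Cacna2d1, an alpha2delta subunit that raises surface expression of the channel, ran from 5.46 (AKP 7) to 11.22 (AKP 8) and overlapped between the groups (limma adjusted p = 0.898). By their brightest probe sets, all 8 gamma subunit genes were below 8 in all lines, and 0 were called.

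**Figure D3:**
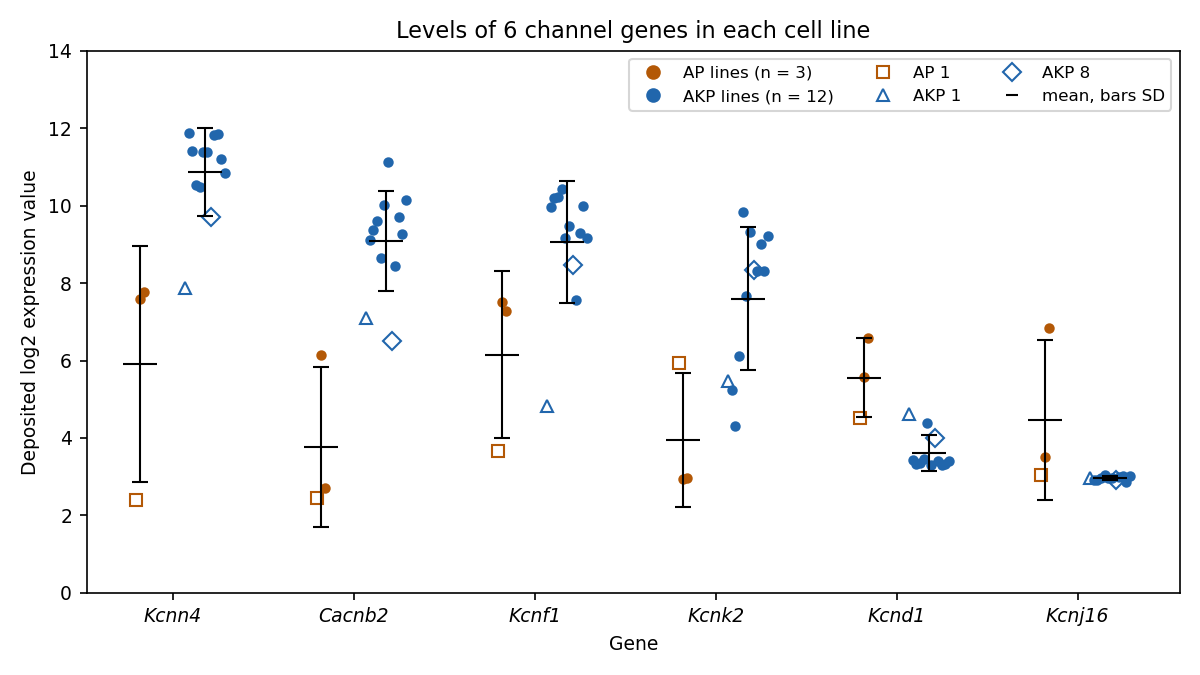
Deposited log2 values of 6 channel genes, each point a cell line (AP orange, n = 3; AKP blue, n = 12), with bars for the mean and SD and open symbols for AP 1, AKP 1 and AKP 8. For Kcnn4 and Cacnb2 every AKP line is above every AP line, and for Kcnj16 the AKP lines form a tight group near 2.96.

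Kcnd1, the third called gene, encodes a pore of rapidly inactivating A-type voltage-gated channels. It lay at 4.52 in AP 1, 5.58 in AP 2 and 6.58 in AP 3, and in AKP from 3.30 through a median of 3.40 to 4.63 (AKP 1). The groups overlapped by 1 line, since AKP 1 lay above AP 1, and the other 11 AKP lines lay below every AP line. The difference was -1.95 ± 0.36 (SE; limma adjusted p = 0.0163). It was -1.44 ± 0.36 without AP 3 (SE; limma adjusted p = 0.0905). Among the fibroblast and smooth muscle markers, Col1a1, a fibrillar collagen, lay at 11.90, 7.59 and 9.27 in AP 1, AP 2 and AP 3, at 10.05 in AKP 1 and between 3.78 and 4.43 in the other 11 AKP lines. AKP 1 was thus the AKP line in the AP range of both genes. Within AP the order differed, since AP 1 was highest for Col1a1 and lowest for Kcnd1. Other markers of the list did not all follow Col1a1. Dcn lay at 13.55 in AKP 3 and 14.65 in AKP 7, above every AP line, and Pdgfra at 11.60 in AKP 2, within the AP range. Of that list of 10 markers, 3 to 7 reached 8 in AP and 0 to 7 in AKP, with summed levels of 11.41 to 17.42 and 8.32 to 15.88, and Myh11 and Lum stayed below 4.35 in all lines. The part of these markers in the difference was not tested. Both other probe sets of Kcnd1 were at most 2.66 in any line, with differences of -0.15 and 0.02.

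Among 31 voltage-gated potassium pore genes, Kcnd1 was the 1 called. Kcnf1, a silent subunit that modifies other voltage-gated channels, lay at 3.66, 7.51 and 7.28 in AP 1, AP 2 and AP 3 and from 4.82 (AKP 1) through a median of 9.39 to 10.44 (AKP 5) in AKP. In 11 of 12 AKP lines it was above every AP line. The difference of 2.91 ± 1.04 did not pass (SE; limma adjusted p = 0.183), and it was 1.67 ± 1.10 without AP 1 (SE; limma adjusted p = 0.468). Without AKP 1, the lowest AKP line, it was 3.30 ± 0.74, and without AKP 1 and AKP 8 it was 3.40 ± 0.75 (SE; limma adjusted p = 0.0341 and 0.0295). Kcnq5, a slowly activating M-type pore, lay at 2.99, 6.65 and 2.91 in AP 1, AP 2 and AP 3 and from 4.17 to 8.13 in AKP, with a difference of 1.95 ± 0.85 (SE; limma adjusted p = 0.272). Its other probe sets differed by 0.10 and 0.28.

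Kcnq1 encodes a voltage-gated pore that in epithelia pairs with Kcne3, a small single-span subunit, to form a constitutively open basolateral channel. Kcnq1 ran from 3.42 (AKP 1) to 10.75 (AKP 2) within AKP and lay at 3.59, 4.99 and 7.81 in AP 1, AP 2 and AP 3. Kcne3 lay between 2.79 and 3.44 in the AP lines, and in AKP from 3.03 to 9.74 (AKP 11), with 7.83 in AKP 3 and 7.30 in AKP 7. AKP 2, the highest line for Kcnq1, had Kcne3 at 3.03. Neither gene was called (limma adjusted p = 0.771 and 0.445). Kcns3, another silent subunit, reached 8.20 in AKP 7 and 7.12 in AKP 3 and was as low as 2.20 in AKP 5.

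Among tandem-pore genes, which carry background potassium currents, 0 of 12 were called. Kcnk2, whose channel (TREK-1) responds to stretch and lipids, lay at 5.95, 2.94 and 2.97 in AP 1, AP 2 and AP 3 and from 4.32 (AKP 3) through a median of 8.32 to 9.83 (AKP 5) in AKP. In 9 of 12 AKP lines it was above every AP line, and AKP 1 to AKP 3 were not among them. The difference was 3.64 ± 1.14 (SE; limma adjusted p = 0.125). The 7 AKP lines with a pair number lay between 7.66 and 9.32, and the 5 without one between 4.32 and 9.83. With the presence of a pair number as a covariate the difference was 3.02 ± 0.83 (SE; limma adjusted p = 0.0766). Kcnk1 split the lines without regard to the label. It lay between 6.91 and 11.16 in AP 2, AP 3, AKP 3, AKP 4, AKP 6, AKP 9, AKP 11 and AKP 12, and between 2.01 and 2.41 in the other 7 lines. A second probe set of Kcnk1 followed it (r = 0.97 over 15 lines, within 1 gene). Kcnk5, an acid-sensitive channel, ran from 2.13 (AKP 3) to 8.31 (AP 3). Kcnk3, another acid-sensitive channel, was 7.44 in AKP 8 and at most 2.67 elsewhere.

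Among 15 inward rectifiers, 0 were called. Kcnj11 lay between 10.04 and 11.09 in all lines by its brightest probe set, and its other probe set stayed at or below 2.22. Kcnj16, a subunit of epithelial and glial channels, lay at 3.04, 3.51 and 6.83 in AP 1, AP 2 and AP 3 and between 2.86 and 3.04 in AKP. The groups did not overlap, but AP 1 and the AKP lines were together on the floor, and the difference of -1.50 ± 0.51 did not pass (SE; limma adjusted p = 0.158). Without AP 3 it was -0.32 ± 0.09, and without AP 1 it was -2.21 ± 0.50 (SE; limma adjusted p = 0.124 and 0.0414). With Kcnn4 and Cacnb2, Kcnj16 was the last of 3 channel genes whose groups did not overlap, and 2.13% of all genes did not overlap.

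A set of channel genes was high in AP 1 alone. Kcnj15, an inward rectifier, was 10.39 in AP 1 and between 2.42 and 2.66 in the other 14 lines. Kcnab1, a cytoplasmic beta subunit of voltage-gated potassium channels, was 10.60 in AP 1, 4.87 in AKP 1 and at most 2.90 in the others. Kcne4, a single-span inhibitory subunit, was 9.32 in AP 1 and at most 3.93 in the others. These gave the AKP minus AP differences of -2.58, -2.30 and -1.67, none of which passed (limma adjusted p = 0.270, 0.374 and 0.389). Without AP 1 the differences became 0.07, 0.45 and 0.45 on the log2 scale. AP 1 is the line with a summed fibroblast and smooth muscle level of 17.42, against 13.8 and 11.4 in AP 2 and AP 3, and with Krt8 at 2.46. Its part in these genes was not tested.

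**Figure D4:**
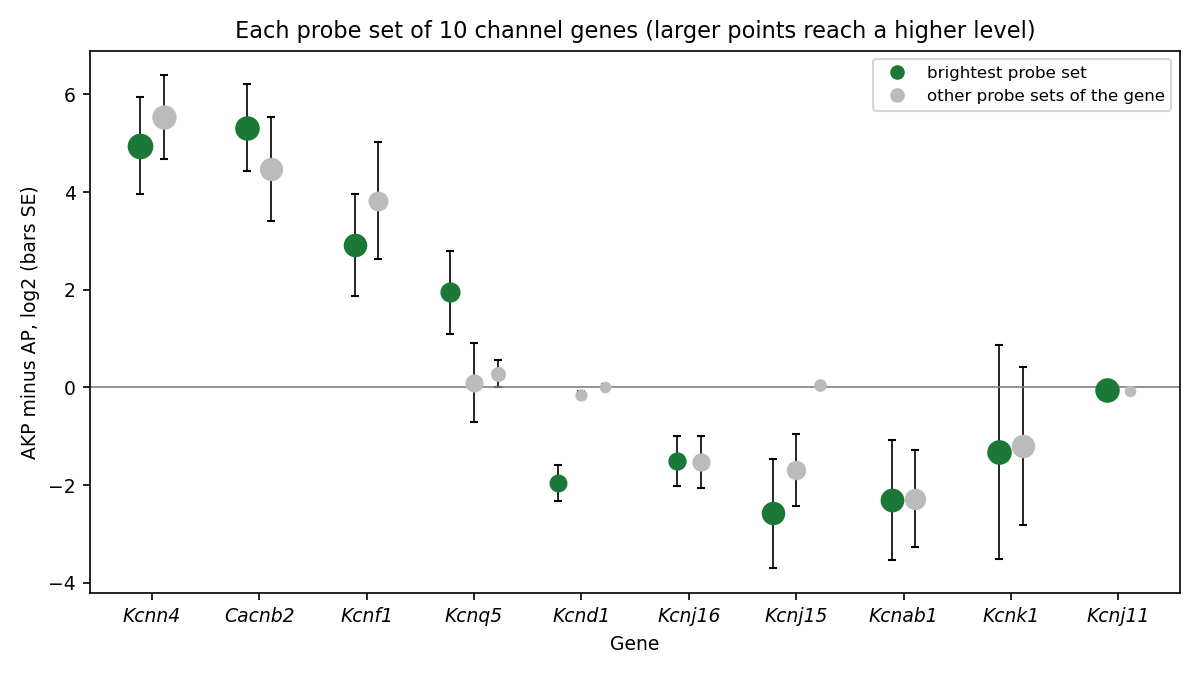
AKP minus AP difference (log2, bars 1 SE) of each probe set of 10 channel genes, with the brightest probe set in green and larger points for probe sets that reach a higher level. The probe sets of Kcnn4, of Cacnb2 and of Kcnf1 differ in the same direction, while for Kcnd1 and Kcnq5 the brightest stands apart from the others.

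Second probe sets gave a further reading of the called genes. The other Kcnn4 probe set read 2.91, 4.30 and 5.33 in AP 1, AP 2 and AP 3, and differed by 5.53 ± 0.85 (SE; limma adjusted p = 0.00719 over 34945 probe sets). Its AP 1 value was on the floor as well. For Cacnb2 the other probe set differed by 4.47 ± 1.07 (SE; limma adjusted p = 0.0531), with AKP 1 at 4.14 below AP 2 at 4.40. The authors' deposited table, which holds 501 entries, lists 4 of the 108 genes. It gives a difference of 6.06 for Kcnn4, 5.77 for Cacnb2, 3.40 for Kcnf1 and -2.09 for Kcnd1, with step-up p-values of 5.26e-05, 0.00258, 0.0497 and 0.0113. The AP mean of Kcnn4 in the authors' deposited table, 4.18, is that of the second probe set. These are not differences over all 12 AKP lines. The AKP means in the authors' deposited table, 10.24, 9.54, 9.55 and 3.47 for the same genes, equal the means over 10 AKP lines without AKP 1 and AKP 8 to within 0.001, by the second probe set for Kcnn4. Over all 12 AKP lines the same probe sets averaged 9.71, 9.08, 9.06 and 3.61.

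Calcium-activated pores of large conductance were also measured. Kcnma1, the pore of that channel, lay between 2.51 (AKP 11) and 6.23 (AKP 7). Kcnmb4, a beta subunit that slows this channel, ran from 5.17 (AKP 1) to 11.21 (AKP 11) and lay at 6.21, 7.60 and 9.39 in AP 1, AP 2 and AP 3 (limma adjusted p = 0.844). Kcnu1, a related pore known from mouse sperm, ran from 4.47 (AKP 1) to 9.53 (AKP 7). Within AKP, the ranges over lines of Kcnk1, Kcnq1, Kcne3, Kcnmb4, Kcnk5 and Kcns3 were 9.15, 7.33, 6.71, 6.04, 6.02 and 6.00 on the log2 scale, the largest among channel genes that reach 8 in an AKP line. The median AKP range was 0.28 over the 108 channel genes and 1.30 over all genes. None of these 6 was called between the genotypes. Kcnq1ot1, the noncoding RNA of the imprinted Kcnq1 region, lay at 3.79 to 4.13 in AP and reached 7.84 in AKP 1 and 7.75 in AKP 3. The 2 antisense genes at Kcnmb4 stayed at or below 3.37.

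Of 66 listed partner genes of channel function, 53 were measured. In this list 1 fell, Rrad, and 0 rose, and 15 had an unadjusted p under 0.05. These are 1.89% and 28.3% of the list, against 1.9% and 16.5% of all genes. The median difference was 0.10 in the list and 0.012 over all genes. Rrad, a small GTPase that binds beta subunits and inhibits calcium channels, lay at 6.12, 5.43 and 6.96 in AP 1, AP 2 and AP 3 and between 3.04 and 4.32 in AKP. Its groups did not overlap, and the difference was -2.72 ± 0.31 (SE; limma adjusted p = 0.000804). Fxyd5, a regulator of the sodium-potassium pump, differed by 2.21 ± 0.54 and Ano1, a calcium-activated chloride channel, by 4.34 ± 1.17 (SE; limma adjusted p = 0.0529 and 0.0776). Ano1 lay at 3.72, 10.05 and 9.98 in AP 1, AP 2 and AP 3 and from 8.71 to 13.37 in AKP. Atp2b1, a calcium pump of the plasma membrane, differed by 0.97 ± 0.27 without overlap between the groups (SE; limma adjusted p = 0.0825). Nme2, a kinase known to activate the Kcnn4 channel, differed by -0.45 ± 0.14, and Rem2, a relative of Rrad, by 3.08 ± 0.97 (SE; limma adjusted p = 0.123 and 0.129). Without AP 1 and AKP 1, 3 partner genes were called, Ano1, Fxyd5 and Rrad.

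The lines AP 1 and AKP 1 stood apart, so the channel genes were also counted without them. In that fit 5 of 108 were called, Kcnn4 and Cacnb2 higher and Kcnd1, Cacna1b and Kcnj16 lower in AKP, against 2.76% of all genes. Cacna1b and Kcnj16 differed there by -0.99 ± 0.22 and -2.21 ± 0.52 (SE; limma adjusted p = 0.0348 and 0.0469), each resting on 2 AP lines of which 1 was high. Without AKP 1 and AKP 8, the AKP lines with the most fibroblast and smooth muscle genes at 8 or above, 4 were called, Kcnn4, Cacnb2, Kcnf1 and Kcnd1, against 4% of all genes. Leaving out each line in turn gave between 1 and 5 called channel genes, 1 without AP 3 (Kcnn4) and 5 without AP 2 (Cacna1g and Kcnv1, both voltage-gated channel family members, beside the 3). The same fits called 0.973% of all genes without AP 3 and 3.21% without AP 2, so the count moved in the same direction over all genes.

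**Figure D5:**
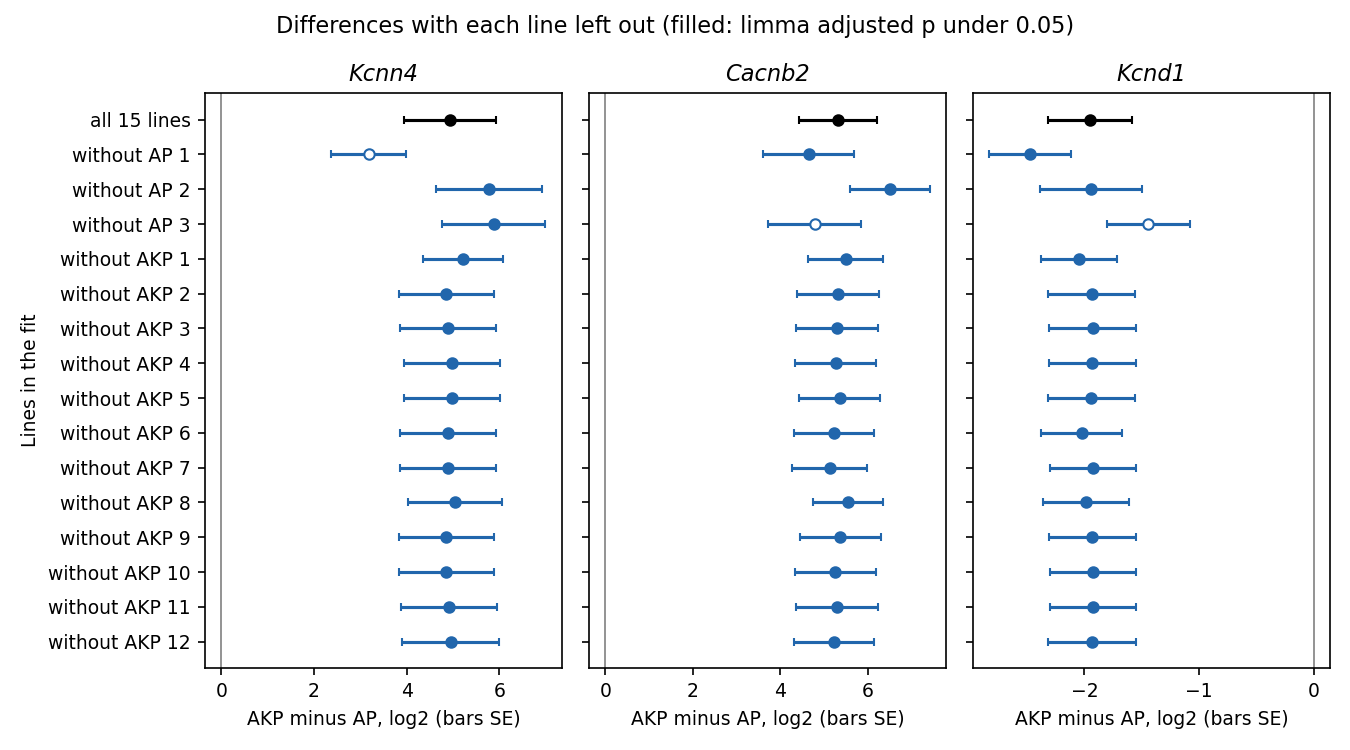
AKP minus AP difference (log2, bars 1 SE) of Kcnn4, Cacnb2 and Kcnd1 with all 15 lines and with each line left out, filled where the limma adjusted p is under 0.05. The call is lost without AP 1 for Kcnn4 and without AP 3 for Cacnb2 and Kcnd1, and with every other single line left out all 3 stay called.

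Within the 12 AKP lines, Kcnn4 and Cacnb2 had Pearson's r = 0.662 (permutation p = 0.0225) and Spearman's rho = 0.336 (permutation p = 0.285), a single relation tested. Without AKP 1 and AKP 8, the lines farthest from the median of Kcnn4, r was -0.03 (permutation p = 0.936), so the relation rests on those lines.

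Sex and lesion type are labelled too, with 1 AKP line called adenoma. Between the 10 lines labelled female and the 5 labelled male, limma with genotype as a covariate called 0 of the 108 genes, and 0 had an unadjusted p under 0.05, against 0% called and 3.16% with an unadjusted p under 0.05 among all genes. The labels are uncertain, since 2 lines labelled female had the Y-linked gene Eif2s3y at 8 or above and 1 line labelled male had it below 8. In the adenoma line, AKP 6, no channel gene lay outside the range of the 11 AKP tumour lines by 1 or more on the log2 scale, against 0.209% of all genes. Kcnn4 was 11.39 and Cacnb2 10.02 there, and this line has no replicate check.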

How the data were processed

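Affymetrix mouse expression arrays measured RNA of 15 mouse cell lines, 1 array per line, per the labels' protocols. The log2 expression values per probe set were used as deposited by the authors; how intensities were corrected, summarized and scaled is not given in the sources used here. Per the file headers, the authors' deposited table adds p-values, t scores, group means, a ratio and a fold change with sign.

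Of 45101 probe sets, 64 controls were left out, 1 with missing values. A single gene was listed for 34945 probe sets, while 932 had several and 9160 had none listed. All 222 channel probe sets matched RefSeq by Entrez identifier. Groups came from the genotype label. Two-sided tests of 18193 genes used lmFit and eBayes of limma 3.58.1 (R 4.3.3) with Benjamini-Hochberg adjustment over all genes and a threshold of 0.05, without covariates or a filter on dim genes, after a test on simulated data. Single values were tested by exact permutation of the lines, and the correlation with 100000 permutations.

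The members, partner list, marker lists and named-gene rule were chosen with earlier results of these data known. Named are Kcnn4 and Cacnb2, called members, the 12 largest differences where a group mean reached 4.17 (the median over probe sets of their means), the 10 highest means, the 6 largest AKP ranges with a line at 8 or above, the other Kcnn and Cacnb genes, members outside the tumour range in the adenoma line, and of the partners the called ones and the 6 with the lowest p. Cacna1b, Cacna1c, Cacna1g, Kcnc2, Kcnk3, Kcnma1, Kcnq1ot1, Kcnv1 and the antisense genes were chosen after their values were seen. Alternatives covered scaling, probe sets, filters on dim genes (40th or 60th percentile), the variance model, covariates, a replicate block and leaving out lines.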

Additional observations from a re-analysis of the deposited data

How the results depend on the processing

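The count of 3 called channel genes was 1 after a 60th percentile filter, 5 without AP 1 and AKP 1 (chosen after seeing the data, as was leaving out AKP 1 and AKP 8), and 1 to 5 leaving out 1 line. With array weights 3 were called, but they were Kcnd1, Cacna1b and Kcnc2. Kcnn4 differed there by 4.32 and Cacnb2 by 4.58 (limma adjusted p = 0.0587 and 0.0735). Leaving out 1 line gave 3.19 to 5.87 for Kcnn4 and 4.65 to 6.50 for Cacnb2. Kcnn4 stayed called in 25 of 28 alternatives and Cacnb2 in 24 of 27. Kcnd1 kept its direction in 26 of 26 and its call in 23 of 26. It lost the call with the median of its probe sets, at -0.15, with the replicate block and without AP 3. The same replicate numbers occur in both genotypes, and the labels do not say that they mark pairs. Deviations from the group means correlated at 0.46, -0.04 and -0.06 for numbers 1 to 3, which cannot settle this with 3 AP lines. With the replicate block, 0 channel genes and 0 of all genes were called, and Kcnn4 differed by 4.47 and Cacnb2 by 4.75 (limma adjusted p = 0.298 and 0.320). Only numbers 1 to 3 inform the genotype difference in that fit, so it had little power to call any gene.

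The count of 1 called partner gene was 2 after a 60th percentile filter, 2 with limma-trend and 2 with the sex label as a covariate. It was 0 with the replicate block and 1 to 4 leaving out 1 line. Without AP 1 and AKP 1 it was 3, and without AKP 1 and AKP 8 it was 4. Both filters on dim genes removed Rrad before testing. The partners called were then Fxyd5 after the 40th percentile filter, and Ano1 and Fxyd5 after the 60th. The differences of Kcnj15, Kcnab1 and Kcne4 changed sign without AP 1, with ranges of -3.90 to 0.075, -3.72 to 0.45 and -2.85 to 0.45 leaving out 1 line, and were 0.076, 0.26 and 0.40 without AP 1 and AKP 1. The correlation of Kcnn4 with Cacnb2 was -0.0305 without the 2 farthest lines. The causes of these shifts were not tested. With 3 AP lines, the number of arrays limits the precision. The counts by sex and for the adenoma line stayed at 0.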
